A study of Mus musculus with 3 samples.

Results

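The cholesterol synthesis, handling and storage genes described here are 31 listed genes out of the 32285 in the deposited matrices, and all 31 were found by symbol. They were chosen by function, with earlier results of these data known. They comprise 7 genes of the mevalonate and isoprenoid steps, 11 of the squalene and sterol ring steps, 5 sensors and regulators, 5 genes of lysosomal release, transport and storage, and 3 of fatty acid synthesis and desaturation. Each of the first 18 encodes an enzyme on the route from acetyl units to cholesterol. The list holds no lipoprotein receptor, so of lipoprotein uptake only the lysosomal steps are covered. The cells were live, Hoechst-stained CD45+ cells, the blood-derived cells, sorted from whole mouse aortas with the adventitia and profiled by droplet single-cell RNA sequencing from transcript 3' ends. All mice were ApoE-/- on C57BL/6J, a strain that clears lipoproteins poorly, and this allele is shared by the controls. One library came from control mice, one (HHcy) from mice given homocysteine at 1.8 g/L in drinking water for 4 weeks, and one (WD) from mice fed a western diet for 4 weeks. The study's title concerns homocysteinemia-accelerated atherosclerosis. The number of mice pooled per library is not given in the labels, and 1 library per group leaves no replicate and no test between groups.

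Cells make cholesterol from acetyl-CoA through mevalonate, farnesyl diphosphate, squalene and lanosterol, or take it from lipoproteins digested in lysosomes. When sterols in the endoplasmic reticulum are low, SCAP carries the SREBP transcription factors to the Golgi, where they are cleaved and then switch on the genes of synthesis. When sterols are high, the INSIG proteins hold SCAP back, and the synthesis genes and Insig1, itself an SREBP target, are transcribed less. Macrophages of the arterial wall that take up lipoproteins store the cholesterol as esters and are then called foam cells.

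The 250 bases upstream of the annotated start are shown for the 6 members that were at least 1.5-fold lower in B cell-like cells of the library labelled HHcy. They are from the RefSeq promoter table (build GRCm38.p6), each written 5' to 3' on the strand of its gene. Capitals mark matches, on either strand, to TCACNCCAC, a core of the sterol regulatory element that SREBPs bind, and to CCAAT, the box bound by NF-Y. The windows are chr5:4104698-4104947 (minus strand) for Cyp51, chr13:8885356-8885605 (plus) for Idi1, chr13:119690101-119690350 (plus) for Hmgcs1, chr5:28071162-28071411 (plus) for Insig1, chr8:64733579-64733828 (minus) for Msmo1 and chr9:42264301-42264550 (minus) for Sc5d.
Cyp51: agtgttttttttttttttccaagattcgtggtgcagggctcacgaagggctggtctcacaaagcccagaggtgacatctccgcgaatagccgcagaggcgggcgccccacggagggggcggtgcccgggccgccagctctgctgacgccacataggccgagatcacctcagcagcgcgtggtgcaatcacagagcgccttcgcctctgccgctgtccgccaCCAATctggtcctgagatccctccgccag
Idi1: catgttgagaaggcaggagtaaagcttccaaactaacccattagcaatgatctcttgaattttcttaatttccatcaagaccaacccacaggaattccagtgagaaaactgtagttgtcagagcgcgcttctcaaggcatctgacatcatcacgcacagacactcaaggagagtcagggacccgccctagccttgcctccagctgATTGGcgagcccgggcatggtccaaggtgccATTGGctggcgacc
Hmgcs1: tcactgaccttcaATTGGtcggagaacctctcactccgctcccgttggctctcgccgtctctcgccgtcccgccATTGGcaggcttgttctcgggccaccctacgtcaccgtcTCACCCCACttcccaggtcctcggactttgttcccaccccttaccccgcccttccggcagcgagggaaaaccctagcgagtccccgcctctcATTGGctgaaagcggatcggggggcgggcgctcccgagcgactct
Insig1: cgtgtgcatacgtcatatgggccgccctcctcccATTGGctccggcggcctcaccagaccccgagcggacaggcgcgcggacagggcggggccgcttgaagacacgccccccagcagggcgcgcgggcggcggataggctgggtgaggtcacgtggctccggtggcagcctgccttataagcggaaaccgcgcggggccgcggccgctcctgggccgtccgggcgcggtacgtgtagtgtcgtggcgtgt
Msmo1: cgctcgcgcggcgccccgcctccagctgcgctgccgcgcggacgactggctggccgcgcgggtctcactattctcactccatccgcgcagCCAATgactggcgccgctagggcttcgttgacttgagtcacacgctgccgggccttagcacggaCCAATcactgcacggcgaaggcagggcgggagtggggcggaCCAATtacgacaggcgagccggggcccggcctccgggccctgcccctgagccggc
Sc5d: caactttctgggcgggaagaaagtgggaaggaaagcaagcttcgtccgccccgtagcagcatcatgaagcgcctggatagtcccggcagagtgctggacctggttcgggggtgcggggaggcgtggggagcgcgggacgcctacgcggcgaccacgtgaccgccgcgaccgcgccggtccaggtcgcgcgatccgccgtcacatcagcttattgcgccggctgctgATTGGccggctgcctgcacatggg

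All 6 windows held at least 1 CCAAT box, and Hmgcs1 and Msmo1 held 3 each. TCACNCCAC occurred once, in Hmgcs1, starting 137 bases before the annotated start. Of the 31 members, 25 were in the table with 33 windows between them. Fdps, Fdft1, Sqle, Stard4, Npc1 and Scd2 were not in it. CCAAT was present in 23 of the 33 member windows (69.7%) and in 33.8% of all 32851 windows of the same length. TCACNCCAC was present in 1 of the 33 (3.03%) and in 1.05% of all windows. A match is a string of letters in the window and was not measured as a binding site here.

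The libraries held 7512 (control), 9753 (HHcy) and 8557 (WD) barcodes with 66789257, 105180370 and 93164076 unique molecular identifiers (UMIs, each a counted transcript copy). Apoe, disrupted in the strain, was at 16.3 and 19.3 UMIs per 1000000 UMIs (CPM) in the control and WD libraries and at 374 CPM in the library labelled HHcy, which goes against the label of that library. Where the 3' end reads lie relative to the disrupted part of the gene is not given in the labels, so Apoe is an incomplete check of the genotype. Across libraries, 61 barcodes occurred in 2 libraries and 2 in all 3. After filtering and removal of barcodes with markers of more than 1 lineage (10.2%, 20.8% and 20.7%), 5422, 6458 and 5324 cells were used. Classes were named from marker genes, with the 31 members kept out of the clustering. The control library held 2134 B cell-like, 1984 macrophage/monocyte-like and 481 conventional dendritic-like cells. The HHcy library held 3573, 1227 and 287 cells of these classes, and the WD library 1193, 2667 and 431. All 12 B cell markers and all 15 macrophage/monocyte markers had UMIs in their own class in every library. Levels below are CPM of the UMIs summed over a class, and values in threes are in the order control, HHcy, WD. Brackets after a level or ratio give 95% intervals for counting error only, which leave out differences between mice and preparations.

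Among the enzymes of the mevalonate steps, conventional dendritic-like cells had the highest mean of 6 of the 7, though only Mvk and Pmvk lay above the next class in every library. Hmgcs1 encodes the synthase that makes HMG-CoA. It was at 22.6, 12.6 and 12.8 CPM in B cell-like cells, at 17.1, 18.03 and 15.7 CPM in macrophage/monocyte-like cells and at 28.8, 26.2 and 15.7 CPM in conventional dendritic-like cells. Pmvk, phosphomevalonate kinase, was at 17.7, 25.5 and 18.8 CPM in B cell-like and at 14.9, 16.9 and 16.3 CPM in macrophage/monocyte-like cells. In conventional dendritic-like cells Pmvk was at 43.0, 55.7 and 51.0 CPM, above every library of the other 4 classes compared here. Plasmacytoid dendritic-like cells, outside these 5, were higher at 76.2, 73.5 and 83.9 CPM, on 2, 36 and 6 UMIs. The remaining mevalonate genes were Acat2 (a thiolase), Mvk (mevalonate kinase), Mvd (the decarboxylase), Idi1 (the isomerase) and Fdps (farnesyl diphosphate synthase), with means of 3.10 to 11.6 CPM in B cell-like and 3.73 to 13.04 CPM in macrophage/monocyte-like cells.

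In the sterol ring steps, B cell-like cells had the highest mean of Cyp51, the lanosterol demethylase, with 47.9, 20.2 and 33.8 CPM. Conventional dendritic-like cells overlapped with them, at 26.5, 27.1 and 12.1 CPM. Within B cell-like cells the level differed by subset, as given below. Macrophage/monocyte-like cells held 10.6, 10.8 and 8.99 CPM of Cyp51, below all 3 B cell values. Ebp, a sterol isomerase, went the other way, with 29.2, 31.3 and 36.2 CPM in B cell-like and 48.7, 63.5 and 59.6 CPM in macrophage/monocyte-like cells. Msmo1, which acts in the removal of methyl groups from the ring, was at 17.04, 9.87 and 10.9 CPM in B cell-like and 12.5, 14.9 and 13.6 CPM in macrophage/monocyte-like cells, so the classes overlapped. The other ring-step genes were Fdft1 (squalene synthase), Sqle (squalene epoxidase), Lss (lanosterol synthase), Tm7sf2, Nsdhl, Hsd17b7, Sc5d and Dhcr7 (reductases, dehydrogenases and a desaturase). Their means were 1.63 to 13.6 CPM in B cell-like and at most 7.88 CPM in macrophage/monocyte-like cells.

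Srebf2, which encodes the SREBP that drives the synthesis genes, was at 111, 86.4 and 95.5 CPM in B cell-like cells and at 58.3, 53.8 and 38.1 CPM in macrophage/monocyte-like cells. Insig1, which retains SCAP in the endoplasmic reticulum, had the opposite order, with 28.5, 16.3 and 17.5 CPM in B cell-like and 70.8, 56.9 and 45.0 CPM in macrophage/monocyte-like cells. The groups of 3 libraries did not overlap between these classes for either gene. Insig2, Srebf1 and Scap had means of 17.6, 13.7 and 17.8 CPM in B cell-like and 17.2, 18.4 and 12.9 CPM in macrophage/monocyte-like cells.

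The genes of lysosomal release and storage were the clearest macrophage genes of the list. Npc2, which binds cholesterol in the lysosome, was at 827, 929 and 918 CPM in macrophage/monocyte-like cells against 170, 142 and 169 CPM in B cell-like cells. Lipa, lysosomal acid lipase, was at 152, 156 and 179 CPM against 26.4, 20.4 and 28.7 CPM. Soat1, which esterifies cholesterol for storage, was at 103, 92.7 and 91.1 CPM against 29.2, 37.3 and 29.6 CPM. Mean Npc1, which exports cholesterol from the lysosome, was 55.4 CPM in macrophage/monocyte-like and 20.4 CPM in B cell-like cells, while the carrier gene Stard4 was at 7.11 and 12.2 CPM. Free RNA was gauged with C1qa, a macrophage gene that B cells should lack: its level in B cell-like cells was 1.57 to 1.93% of that in macrophage/monocyte-like cells. Npc2 reached 15.3 to 20.6%, Lipa 13.1 to 17.4% and Soat1 28.4 to 40.3% of the macrophage level in B cell-like cells, above this background.

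Of the fatty acid genes, Scd2, a stearoyl-CoA desaturase, was at 51.9, 49.0 and 76.0 CPM in B cell-like and 18.8, 15.9 and 31.4 CPM in macrophage/monocyte-like cells. Fasn, fatty acid synthase, was at 24.6, 19.6 and 21.4 CPM in B cell-like and 8.36, 6.76 and 6.60 CPM in macrophage/monocyte-like cells, with no overlap. Acaca, acetyl-CoA carboxylase, was at 10.8, 10.5 and 12.4 CPM and at 14.3, 17.5 and 13.2 CPM.

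**Figure D1:**
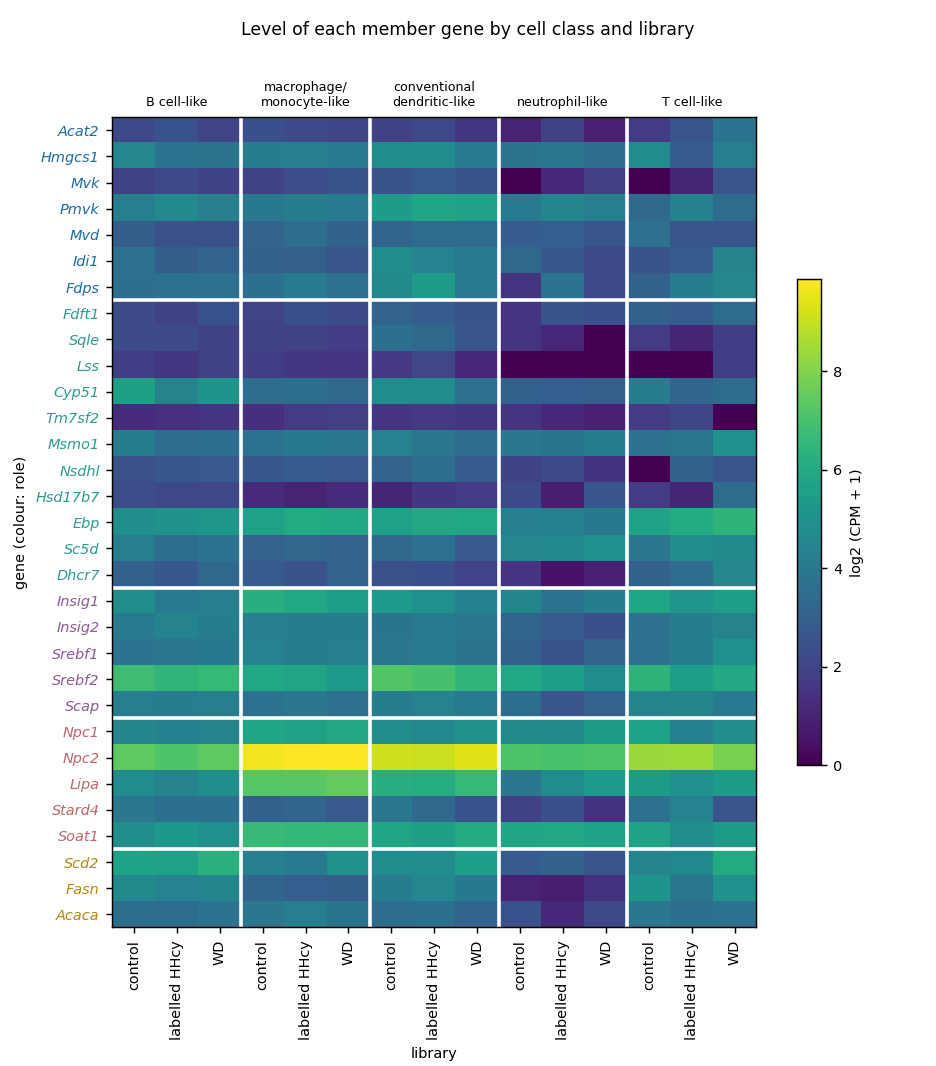
Heat map of the 31 genes (rows, grouped by role) in 5 cell classes, with 3 columns per class for the control, HHcy and WD libraries; the colour is log2(CPM + 1) of summed UMIs. Npc2, Lipa and Soat1 are each brightest (highest) in macrophage/monocyte-like cells, and Cyp51 and Scd2 are higher in B cell-like than in macrophage/monocyte-like cells.

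Ordered by their means over the 3 libraries, 9 members were highest in conventional dendritic-like, 7 in macrophage/monocyte-like, 4 in B cell-like, 10 in T cell-like cells and 1 in neutrophil-like cells. For only 6 of these 31 did the libraries of the highest class lie wholly above those of the second, against 41.1% of all 13613 genes with at least 50 UMIs over these 5 classes: Mvk, Pmvk and Sqle in conventional dendritic-like cells, and Npc2, Lipa and Soat1 in macrophage/monocyte-like cells. For the other 25 the first 2 classes overlapped in at least 1 library. The T cell-like levels rest on 79, 130 and 77 cells. The 18 synthesis enzymes together were at 215, 166 and 185 CPM in B cell-like cells, 167, 197 and 180 CPM in macrophage/monocyte-like cells, 280, 315 and 228 CPM in conventional dendritic-like cells, 122, 139 and 125 CPM in neutrophil-like cells, and 175, 205 and 297 CPM in T cell-like cells.

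The classes were compared within the 3 libraries with the edgeR quasi-likelihood test, library as a block, and Benjamini-Hochberg adjustment over all genes. Between macrophage/monocyte-like and B cell-like cells, 8 of the 31 members were higher in macrophages/monocytes, 11 lower and 12 not past an adjusted p of 0.05, where 37.7% of all 12891 genes tested were higher and 36.6% lower. The 8 held 4 of the 5 lysosomal and storage genes. Lipa differed by a log2 of 2.59 ± 0.10 (SE; edgeR adjusted p = 2.92e-07), Npc2 by 2.37 ± 0.10 (3.74e-07) and Soat1 by 1.47 ± 0.11 (8.85e-06). Each was higher in macrophage/monocyte-like cells in all 3 libraries. The members furthest below B cell-like cells were Cyp51 (-1.81 ± 0.22, adjusted p = 1.38e-04), Fasn (-1.701 ± 0.10, 2.96e-06) and Hsd17b7 (-1.59 ± 0.23, 4.40e-04). Of the 18 enzymes, 2 (Mvd and Ebp) were higher, 6 lower and 10 not called, so they did not differ in one direction between these classes.

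Conventional dendritic cells present antigen to T cells and share a precursor with monocytes. Against macrophage/monocyte-like cells, 11 of 31 members were higher in conventional dendritic-like cells, 6 lower and 14 not called, with 23.3% of 11980 genes higher and 26.5% lower. The higher members held 4 of 7 mevalonate and 3 of 11 ring-step genes, and none of the 18 synthesis enzymes was called lower. Idi1 was higher by a log2 of 1.77 ± 0.14 (edgeR adjusted p = 1.16e-04), Pmvk by 1.695 ± 0.09 (3.62e-05) and Sqle by 1.67 ± 0.24 (0.00153). Srebf2 was also higher, at 143, 127 and 87.9 CPM, by 1.31 ± 0.07 (4.16e-05). The lower members held 4 of the 5 lysosomal and storage genes, among them Lipa (-0.98 ± 0.09, 2.22e-04) and Npc1 (-0.92 ± 0.09, 3.29e-04), and also Insig1 (-0.93 ± 0.10, 5.12e-04).

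Neutrophil-like cells were shallow, with 135 UMIs of the 18 enzymes in the control library. Against macrophage/monocyte-like cells, 5 of 31 members were called higher, 10 lower and 16 neither, with 26.3% of 11438 genes higher and 32.4% lower. All 3 fatty acid genes were lower, with Fasn at 0.908, 0.784 and 1.75 CPM (log2 -1.96 ± 0.59, edgeR adjusted p = 0.00689). Sc5d was at 22.7, 23.1 and 29.7 CPM against 7.52, 8.51 and 7.61 CPM, a log2 difference of 2.42 ± 0.24 (2.48e-08), and its neutrophil libraries lay above all macrophage/monocyte ones. Hsd17b7 (1.92 ± 0.65, 0.0160) and Pmvk (0.99 ± 0.24, 0.00122) were also called higher, and Dhcr7 lower (-1.99 ± 0.64, 0.0118). Hsd17b7 was higher in 2 of 3 libraries, with 0.784 against 1.002 CPM in the library labelled HHcy, and its call was lost without the control library (adjusted p = 0.0674) and with multiplets kept (0.146). The Pmvk call was lost without the library labelled HHcy (0.0643), with multiplets kept (0.0675) and after thinning (0.0625). The calls of Fasn and Dhcr7 were lost without the library labelled HHcy (0.0566 and 0.0812), with multiplets kept (0.135 and 0.111) and with DESeq2 (0.0501 and 0.0688), and that of Dhcr7 also without the WD library (0.0709). Lss had 0 UMIs in all 3 neutrophil libraries, where 3 counts would have given 2.72, 1.18 and 2.62 CPM, and macrophage/monocyte-like cells held 2.54, 1.92 and 1.79 CPM, so no fold is given. The fit used TMM scaling, and its median over all genes was -0.22. Soat1, with means of 55.0 against 95.5 CPM, was fitted at -0.03. Pmvk was fitted at 0.99 with means of 18.4 against 16.0 CPM, and Msmo1, also called higher, at 0.86 with 14.8 against 13.65 CPM. For these members the fitted differences thus stood above those of the CPM, and their sizes depended on the scaling. Srebf2 was called higher (0.51 ± 0.17, 0.0146) although its mean CPM was lower (43.2 against 50.1), so its direction depended on the scaling. Without the control library, and without the library labelled HHcy, 3 members were called higher, and 6 were called lower without the latter.

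**Figure D2:**
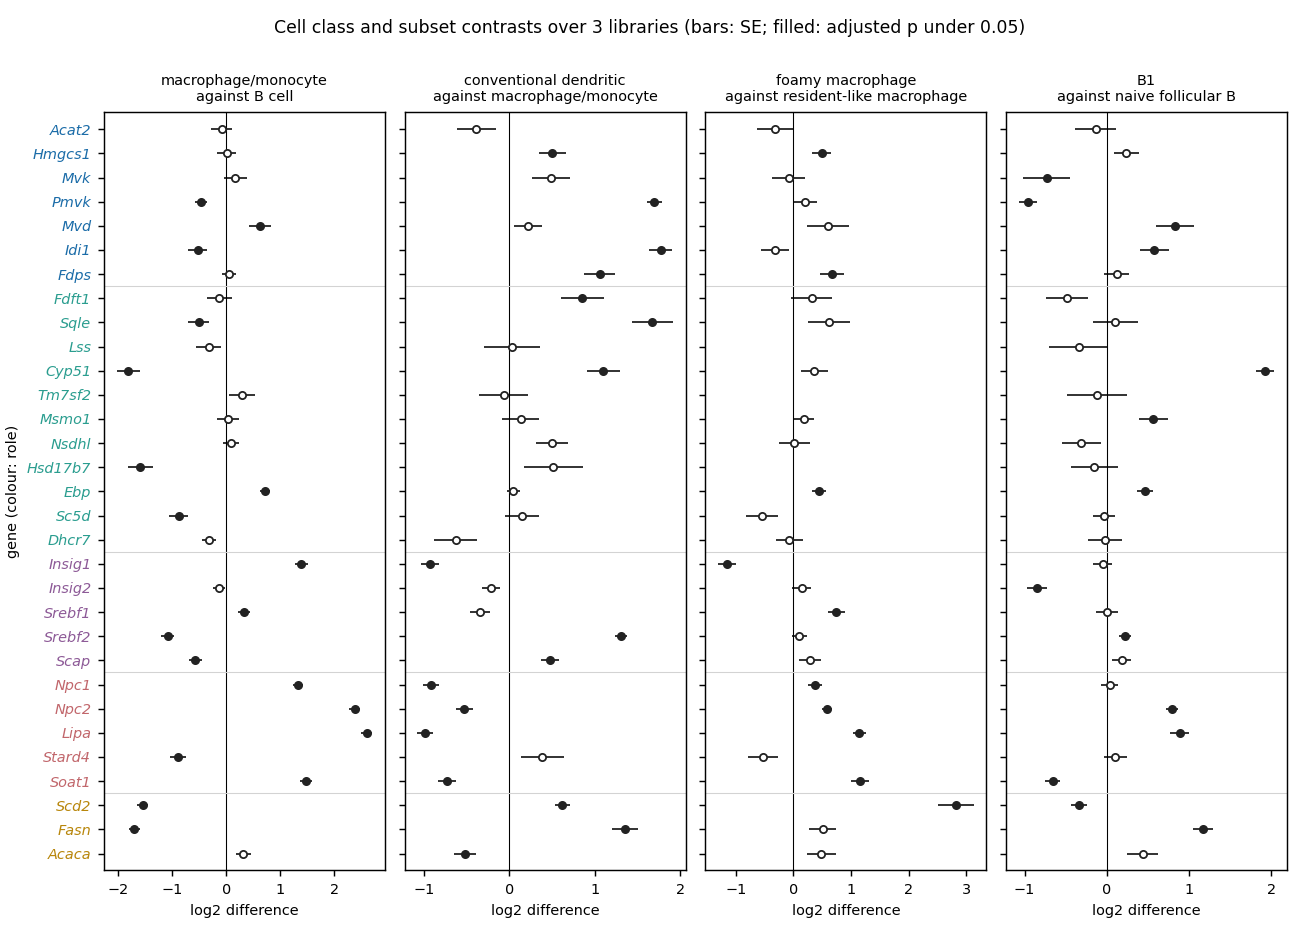
Log2 differences (x axis, points with SE bars) of the members (rows) in 4 contrasts between cell classes or subsets, each fitted with edgeR over the 3 libraries; filled points have an adjusted p under 0.05. Lipa, Npc2 and Soat1 lie to the right in macrophage/monocyte-like against B cell-like and in foamy-like against resident-like cells, and Insig1 lies to the left in the foamy-like contrast.

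In B cell-like cells the 2 treated libraries are each set against the same control library, so the comparisons are not independent. A member counted as past the limit when it differed at least 1.5-fold and had at least 50 UMIs over both libraries. In the library labelled HHcy, 6 of 31 members were past the limit downward and 0 upward, with 7.43% of 10901 genes lower and 4.42% higher. Cyp51 differed most, with 20.2 CPM (18.6 to 21.9) against the control's 47.9 CPM (44.8 to 51.2), a log2 ratio of -1.248. With the same mix of B cell sub-clusters in both libraries its ratio was -0.61. Cyp51 was higher in B1-like than in naive follicular-like cells, and the library labelled HHcy held relatively more of the latter. The other 5 had log2 ratios of -0.84 (Idi1, 11.7 to 6.54 CPM), -0.84 (Hmgcs1, 22.6 to 12.6), -0.81 (Insig1, 28.5 to 16.3), -0.79 (Msmo1, 17.04 to 9.87) and -0.71 (Sc5d, 17.6 to 10.7), and -0.94 to -0.63 with the same mix. They span the mevalonate steps, the ring steps and the INSIG sensor, and 5 of them are synthesis enzymes.

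The 18 enzymes summed in B cell-like cells of the library labelled HHcy were at 166 CPM against 215 CPM, a log2 ratio of -0.38 (-0.44 to -0.31). Of the 18, 11 were lower and 7 higher, with a median log2 ratio of -0.30 beside -0.02 over all genes. Not all moved one way: Pmvk was at 25.5 against 17.7 CPM, the furthest member upward and short of the limit. Within naive follicular-like cells Pmvk was at 30.04 against 27.6 CPM and within B1-like cells at 15.3 against 12.8 CPM, and 4 of 7 sub-clusters were higher. Soat1 was at 37.3 CPM (35.1 to 39.7) against 29.2 CPM (26.8 to 31.8), and Insig2, the second INSIG gene, at 20.03 against 15.3 CPM. Neither stood as far apart within subsets. Soat1 was at 43.8 against 44.6 CPM in naive follicular-like and 24.8 against 24.2 CPM in B1-like cells, and Insig2 at 22.8 against 21.2 CPM and 12.7 against 10.8 CPM. In the same cells the 14 dissociation and heat shock genes were all lower in the library labelled HHcy, 7 of them past the limit, with a summed level of 6212 against 8769 CPM. Their part in the result was not tested.

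In B cell-like cells of the WD library, 3 of 30 members with enough UMIs were past the limit downward and 0 upward, with 1.97% of 10283 genes lower and 3.38% higher. Hmgcs1 was at 12.8 CPM (10.7 to 15.3) against 22.6 CPM (20.4 to 24.8) in the control, a log2 ratio of -0.81. Insig1 was at 17.5 CPM against 28.5 CPM (-0.71) and Msmo1 at 10.9 against 17.04 CPM (-0.64). Cyp51 was at 33.8 CPM, between the other libraries, and Scd2 at 76.0 CPM (70.5 to 81.7), above the 51.9 CPM (48.6 to 55.3) of the control but short of the limit. The summed enzymes had a log2 ratio of -0.22 (-0.30 to -0.14), and the median of the 30 members was 0.0029, beside 0.03 over all genes. The dissociation genes summed to 8645 CPM here, and the cell cycle genes to 417 against 311 CPM in the control. Macrophage/monocyte markers in B cell-like cells summed to 275, 318 and 449 CPM, with all 15 markers present in every library, and their part was not tested.

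**Figure D3:**
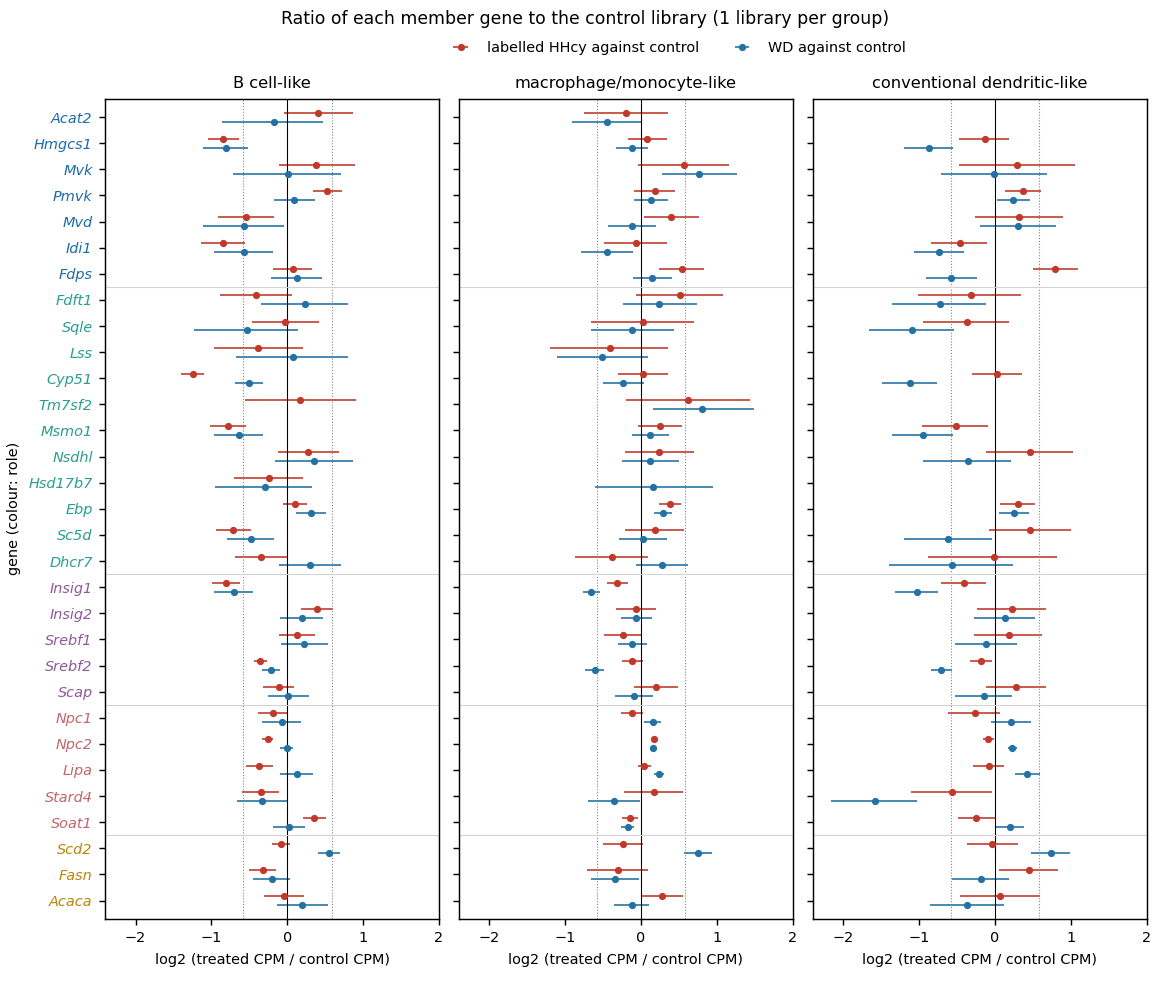
Log2 ratio to the control library (x axis, points with 95% counting intervals) of each member (rows) in B cell-like, macrophage/monocyte-like and conventional dendritic-like cells, with 1 colour for the library labelled HHcy and 1 for WD; dotted lines mark 1.5-fold, and members under 50 UMIs over both libraries are not drawn. In the B cell-like panel Cyp51 of the library labelled HHcy lies furthest to the left, and the enzymes in conventional dendritic-like cells of the WD library lie mostly left of 0.

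B cell-like cells were split into subsets, since the library labelled HHcy held more naive follicular cells (2604, against 737 in the control and 501 in WD). In naive follicular-like cells Insig1 was at 33.5, 15.6 and 18.5 CPM, and Hmgcs1 at 23.1, 11.2 and 12.9 CPM. Cyp51 was at 21.7, 10.4 and 16.4 CPM there. In these cells 9 to 11 of 11 neutrophil markers had UMIs, summing to 101, 245 and 157 CPM, and 2 to 3 of 3 erythroid markers, summing to 8.02, 240 and 5.59 CPM. Their part in the result was not tested. In the library labelled HHcy 7 members of this subset were past the limit downward (5.41% of all genes) and 1 upward (3.66%), the latter being Acaca with 10.3 against 6.13 CPM. In B1-like cells, the innate-like B cells of body cavities, Cyp51 was at 61.4, 45.0 and 52.6 CPM. Here 2 members were past the limit downward (2.79% of all genes) in the library labelled HHcy, Idi1 (11.9 to 7.47 CPM) and Insig1 (25.7 to 16.4 CPM), and Acat2 upward (2.5%). In the WD library 4 were lower in B1-like cells (2.97%), with Hmgcs1 at 9.75 against 21.7 CPM, and Nsdhl was higher (2.16%). In naive follicular-like cells of the WD library 3 of 22 members were past the limit downward (2.6% of all genes) and 1 upward (2.64%).

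Over the 7 B cell sub-clusters with at least 20 UMIs, Insig1 was lower than in the control in 7 of 7 in both treated libraries, as was Srebf2. These sub-clusters are parts of the same libraries and not repeats. In WD the Insig1 log2 ratios of those led by Pxdc1, Egr2 and Pclaf were -0.09, -0.26 and -0.16, with intervals that included 0. Hmgcs1 was lower in 7 of 7 (HHcy) and 6 of 7 (WD), Cyp51 in 6 of 6 with enough UMIs in each, and the summed enzymes in 7 of 7 and 6 of 7. One sub-cluster led by Neurl3 and Satb1 drew 71.6% of its cells from the library labelled HHcy. Without it the summed enzymes had a log2 ratio of -0.26 in that library, against -0.38 with it, Cyp51 had -0.91, and Msmo1 (-0.54) and Sc5d (-0.49) fell short of the limit, while with the same mix of sub-clusters in both libraries the ratio was -0.28.

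Between B1-like and naive follicular-like cells, 9 of 31 members were higher in B1-like cells, 5 lower and 17 not called (26.5% and 23.8% of 10405 genes). Cyp51 was 53.0 CPM on average in B1-like and 16.2 CPM in naive follicular-like cells, a log2 difference of 1.93 ± 0.11 (edgeR adjusted p = 8.47e-10). Fasn (1.17 ± 0.13, 1.33e-06) and Lipa (0.89 ± 0.11, 7.63e-06) followed. The lower members were led by Pmvk (-0.96 ± 0.11, 3.15e-06) and Insig2 (-0.85 ± 0.12, 3.04e-05). B1-like cells were deeper, with medians of 10698.5, 11668 and 11023.5 UMIs a cell against 5290, 6004.5 and 5187. At 1000 UMIs a cell 10 of the called members could be tested. The calls of Pmvk, Lipa, Ebp, Scd2 and Soat1 were then lost, and Srebf2 had the opposite direction. Mvk (-0.73 ± 0.29, 0.0456) was called at 2.25 against 3.97 CPM, a call lost in 6 of 9 alternatives, with adjusted p of 0.0509 (no library block) to 0.440 (without the library labelled HHcy) and 0.0938 without the WD library. Without the library labelled HHcy 3 members were called lower, and the DESeq2 Wald test called 5 higher and 3 lower. The summed enzymes were at 213, 195 and 186 CPM in B1-like and 191, 150 and 176 CPM in naive follicular-like cells.

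**Figure D4:**
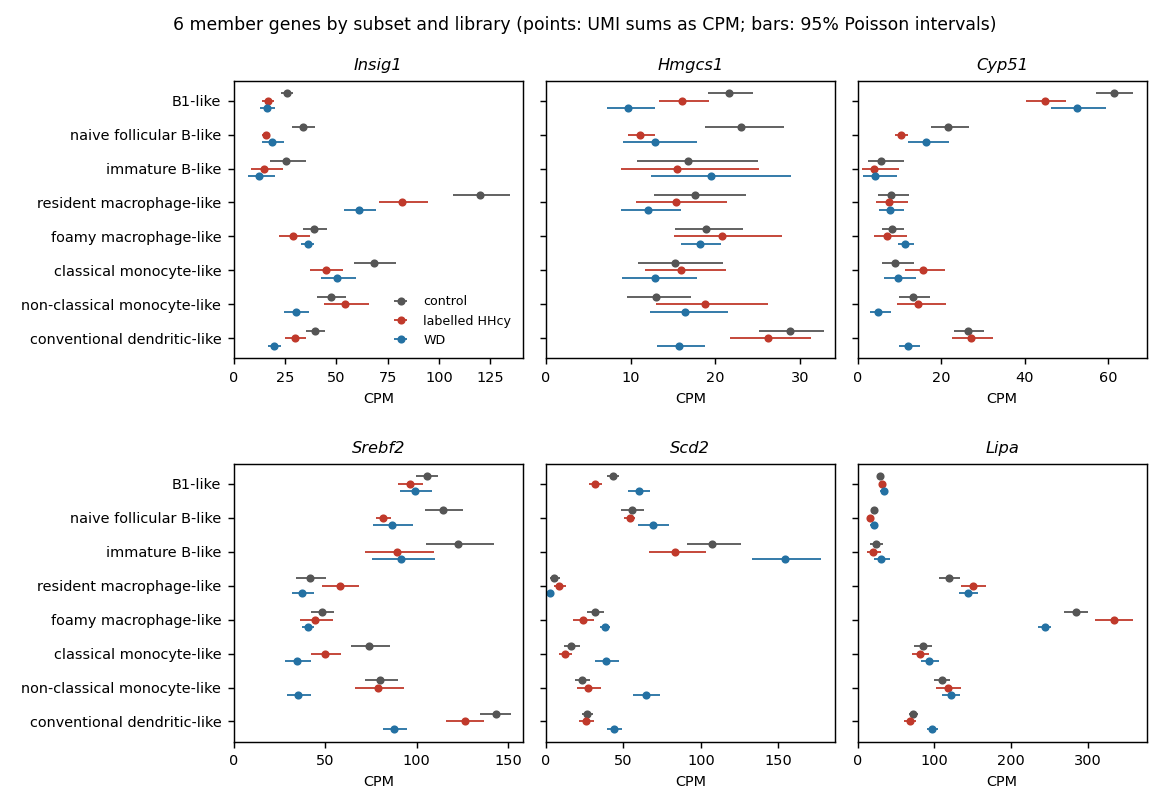
CPM (x axis, bars of 95% Poisson intervals) of Insig1, Hmgcs1, Cyp51, Srebf2, Scd2 and Lipa in B cell-like and macrophage/monocyte-like subsets and in conventional dendritic-like cells (y axis), with 1 colour per library. In naive follicular-like cells the control library lies to the right of both treated libraries for Insig1, Hmgcs1 and Cyp51.

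In macrophage/monocyte-like cells of the library labelled HHcy, 1 of 30 members was past the limit upward and 0 downward, with 2.98% of 11005 genes higher and 3.56% lower. It was Tm7sf2, a sterol reductase, at 2.34 against 1.53 CPM and only 28 and 27 UMIs. The 18 enzymes summed to 197 against 167 CPM, a log2 ratio of 0.24 (0.16 to 0.32), and 13 of 17 with enough UMIs were higher. In the same cells 10 to 11 of 11 neutrophil markers summed to 541 against 210 CPM and 2 to 3 of 3 erythroid markers to 137 against 10.2 CPM, and their part was not tested. When lineage markers of the single cell set its name, the ratio of the sum was 0.13, and 0 members were past the limit. Ebp was at 63.5 CPM (59.1 to 68.2) against 48.7 CPM (45.5 to 52.1), and Fdps at 15.9 against 11.0 CPM, with intervals that did not overlap. Insig1 was at 56.9 CPM (52.7 to 61.4) against 70.8 CPM (66.9 to 74.8).

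In the WD library, 2 members were past the limit downward in macrophage/monocyte-like cells and 3 upward of 31, with 3.74% of 11710 genes lower and 4.07% higher. Insig1 was at 45.0 CPM (42.6 to 47.5) against 70.8 CPM, a log2 ratio of -0.65, and Srebf2 at 38.1 CPM (35.9 to 40.4) against 58.3 CPM (54.8 to 61.9), a ratio of -0.61. Both are parts of the sensing system. Upward, Scd2 was at 31.4 against 18.8 CPM (0.74, and 1.199 at 1000 UMIs a cell), Mvk at 4.68 against 2.77 CPM (0.76) and Tm7sf2 at 2.66 against 1.53 CPM (0.80). The enzymes together were at 180 against 167 CPM (log2 0.10, 0.04 to 0.17), and the median of the 31 members was -0.07 beside -0.02 over all genes. Most of the rise in the sum lay in Ebp, at 59.6 against 48.7 CPM. Other enzymes were lower, among them Hmgcs1 (15.7 against 17.1 CPM) and Cyp51 (8.99 against 10.6 CPM). When lineage markers of the single cell set its name, the sum had a log2 ratio of -0.0026. The cell cycle genes summed to 584 CPM in these cells of the WD library, 313 CPM in HHcy and 432 CPM in the control, and their part was not tested.

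The subsets showed where these WD values lay. In resident-like macrophages, which carry markers such as Lyve1 and Cd163, Insig1 was at 120, 82.1 and 61.0 CPM, and was the 1 member past the limit downward in WD (3.66% of genes), with 0 upward (3.67%). In non-classical monocyte-like cells of the WD library Cyp51 was at 4.95 against 13.2 CPM and Srebf2 at 35.3 against 80.2 CPM, with 4 members past the limit downward (3.03%). Scd2 was at 64.4 against 23.4 CPM there, the 1 member past the limit upward (4.27%). In classical monocyte-like cells Srebf2 was at 34.6 against 74.2 CPM and Scd2 at 39.0 against 16.5 CPM, with 2 members past the limit downward (8.23%) and 1 upward (4.74%). In foamy-like cells 1 of 27 was past it in each direction (3.87% lower, 4.07% higher). Over 10 sub-clusters with at least 20 UMIs, Insig1 was lower in WD in 8, Srebf2 in 9 and the summed enzymes in 5. In the library labelled HHcy, Insig1 was lower in 8 of 9 sub-clusters, while the summed enzymes were higher in 8 of 9.

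Foamy-like macrophages were named from markers such as Trem2 and Gpnmb, and numbered 387, 193 and 1026. Across the libraries, 1076 of these cells were in a sub-cluster led by Cd72 and Nes, with Trem2 among its leading genes. A Gpnmb-led sub-cluster held 401, and a sub-cluster led by Mmp13 and H2-M2 held 129. Against resident-like macrophages (455, 358 and 550), 28 members could be tested, of which 9 were higher in foamy-like cells, 1 lower and 18 not called (24.8% and 23.7% of 10195 genes). Scd2 was at 31.7, 23.7 and 38.02 CPM against 5.20, 8.34 and 2.56 CPM, a log2 difference of 2.82 ± 0.31 (edgeR adjusted p = 2.497e-05). In the control and WD libraries Scd2 was at 54.8 and 83.9 CPM in the Gpnmb-led sub-cluster. It was at 14.3 and 14.3 CPM in the larger Cd72-led and at 39.1 and 34.7 CPM in the Mmp13-led sub-cluster. Soat1 was at 131, 86.6 and 103 CPM against 41.2, 52.2 and 58.9 CPM (1.16 ± 0.16, 1.53e-04). Lipa was at 284, 334 and 244 CPM against 118, 150 and 144 CPM (1.15 ± 0.11, 8.62e-06). The 4 called genes of lysosomal release and storage were all higher, as were Srebf1 (0.75 ± 0.15, 0.00226) and Fdps (0.68 ± 0.21, 0.0195), whose call was lost with DESeq2, without the WD library and without the library block. Insig1 was the only member called lower, at 39.2, 28.9 and 35.9 CPM against 120, 82.1 and 61.0 CPM (-1.15 ± 0.16, 1.35e-04). Without the WD library 2 members were called lower, and the DESeq2 Wald test called 5 higher.

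In conventional dendritic-like cells of the WD library, 10 of the 27 members with enough UMIs were past the limit downward and 1 upward, with 6.22% of 9807 genes lower and 5.19% higher. Stard4, a carrier of cholesterol, was at 4.65 CPM (3.25 to 6.43) against 13.9 CPM (11.4 to 16.8), a log2 ratio of -1.58. Cyp51 was at 12.1 against 26.5 CPM (-1.13), Sqle at 5.29 against 11.3 CPM (-1.09), Insig1 at 19.4 against 39.6 CPM (-1.03) and Msmo1 at 10.2 against 19.7 CPM (-0.95). Hmgcs1, Idi1, Fdft1, Srebf2 and Sc5d were the others, at log2 ratios of -0.87 to -0.61. Scd2 was the member higher, at 44.2 against 26.6 CPM. The summed enzymes were at 228 against 280 CPM, a log2 ratio of -0.30, and the median of the 27 members was -0.36 beside -0.01 over all genes. The summed enzymes were lower in 4 of 4 clusters. At 1000 UMIs a cell, 1 member was past the limit downward, and Fdft1 (0.57) and Sqle (0.15) had the opposite direction, while Msmo1 (-1.96) and Srebf2 (-1.251) lay further down.

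The same cells of the library labelled HHcy had 1 member past the limit upward, Fdps at 42.4 against 24.4 CPM (log2 ratio 0.80, and 1.48 at 1000 UMIs a cell), and 0 downward (4.88% of 9454 genes higher, 3.52% lower). Insig1 was at 29.7 CPM (24.9 to 35.1) against 39.6 CPM (35.2 to 44.2), and the summed enzymes at 315 against 280 CPM. A cluster led by Fscn1 and Ccl22 held 80, 33 and 109 of these cells. Without it, the WD ratios were -1.249 for Cyp51, -0.84 for Insig1, -1.48 for Stard4 and -0.30 for the summed enzymes. The cell cycle genes summed to 550 CPM in WD, 749 in HHcy and 752 in the control, and their part in the enzyme values was not tested.

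Within a class, transcripts of the enzymes were thinly spread. In B cell-like cells 69.2% (control), 63.2% (HHcy) and 65.8% (WD) of cells had a UMI of any of the 18, and 60.3%, 69.5% and 68.5% of macrophage/monocyte-like cells. After each cell was thinned to 1000 UMIs these shares were 17.5%, 14.6% and 16.99%, and 15.1%, 16.4% and 14.8%. The 10% of cells with the most enzyme UMIs held 38.6 to 42.8% of the enzyme UMIs over the 2 classes. For Cyp51, 23.0%, 10.4% and 15.7% of B cell-like cells had a UMI (exact binomial intervals 21.2 to 24.9%, 9.40 to 11.4% and 13.7 to 17.9%), and 3.57%, 1.49% and 2.69% after thinning. The order of the 3 libraries was thus the same as in CPM at equal depth.

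The 56 other sterol-regulated and lipid genes on a second list gave a comparison. In B cell-like cells of the library labelled HHcy, 3 of 48 with enough UMIs were past the limit downward and 2 upward, against 6 and 0 of the 31 members. Over all genes 7.43% were lower and 4.42% higher, so the counts of the second list were near these shares. The lower listed genes were led by Acacb (0.568 against 1.84 CPM) and Nfya (37.9 against 65.6 CPM), which encodes a subunit of the CCAAT-binding factor NF-Y. The higher ones were the cholesterol exporters Abca1 (110 against 65.3 CPM) and Abcg1 (131 against 86.0 CPM). In WD, 0 of 47 were past the limit downward and 3 upward, with 1.97% of all genes lower and 3.38% higher. The 3 were led by Abcg1 (152 CPM) and Plin2 (15.0 against 8.71 CPM), a lipid droplet coat gene. In macrophage/monocyte-like cells of the WD library, Acss2 (4.08 against 7.80 CPM) and Abhd2 (11.1 against 18.5 CPM) were past the limit downward and Ch25h (34.8 against 19.0 CPM) upward, of 52. Over all genes 3.74% were lower and 4.07% higher. The library labelled HHcy had 0 of 52 past the limit in either direction there, with 3.56% of all genes lower and 2.98% higher.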

How the data were processed

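The authors' deposited matrices hold raw UMI counts per gene and cell barcode of 3 libraries, without normalization, from Chromium 3' version 3 kits per the labels. The file headers name Cell Ranger 4.0.0 and the submitters' processing notes name Cell Ranger 2.2.0 and mm10; which applies is not given in the sources used here. Total counts per library are in the report. The 31 genes and all gene lists were chosen with earlier results of these data known.

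Barcodes with under 200 genes or over 10% mitochondrial UMIs were left out. Barcodes reaching the marker limit of 2 or more lineages (6 B cell, 6 T/NK, 8 myeloid, 6 neutrophil or 5 stromal markers, limits set after the data were seen) were left out as multiplets. No doublet caller was run, and doublets of 1 lineage remain. Cells were clustered (2000 variable genes without the lipid lists, 30 components, 20 neighbours, Leiden resolution 1.0, sub-clusters 0.5; leidenalg 0.10.2) and named from fixed markers, with a score of at least 0.2 and a second class under 0.5 of it, also set after the data were seen. B cell sub-clusters that met no limit stayed unnamed.

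UMIs were summed per library and class and given as CPM, the UMIs per 1000000 UMIs of the class. Levels carry exact Poisson, shares exact Clopper-Pearson and ratios exact conditional binomial intervals (95%). Classes were compared with edgeR 4.0.16 (glmQLFit, glmQLFTest, filterByExpr, TMM, library as a block) at an adjusted p under 0.05. The class labels come from the same cells, and libraries of different treatments stand as replicates. The edgeR script was tested on simulated counts. DESeq2 1.42.0 was an alternative. Named in full were the 2 members of each role with the highest level in B cell-like or macrophage/monocyte-like cells, up to 5 members past the limit per direction and comparison, and the 3 called members furthest in each direction per contrast. Other members named were chosen after their values were seen. Alternatives changed the mitochondrial limit, multiplets, resolution, naming, scaling, cell weights, depth (1000 UMIs a cell), sub-cluster mix, fold and UMI limits, cycling and Apoe-rich cells. Those leaving out the Neurl3-led, Fscn1-led or other foamy sub-clusters were chosen after seeing the data. 0 columns of other series were present.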

Additional observations from a re-analysis of the deposited data

Results flagged for a closer look

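In 5 cases the library labelled HHcy or the WD library differed from the control in opposite directions in B cell-like and macrophage/monocyte-like cells, with both counting intervals clear of 0. Each group is 1 library, so the differences between the classes were not tested. For the library labelled HHcy, the summed 18 enzymes had a log2 ratio of -0.38 in B cell-like and 0.24 in macrophage/monocyte-like cells, a difference of -0.61. Mvd, the decarboxylase of the mevalonate steps, had -0.55 and 0.40, a difference of -0.95. In B1-like cells Mvd was at 6.29 against 6.05 CPM, and in naive follicular-like cells at 3.32 against 4.95 CPM. Npc2, the lysosomal cholesterol carrier, had -0.26 and 0.17, a difference of -0.43. Within B cell subsets Npc2 was at 117 against 126 CPM in naive follicular-like and at 210 against 194 CPM in B1-like cells, and 4 of 7 sub-clusters were lower. Soat1, the esterifying enzyme, had 0.35 and -0.15, a difference of 0.50. Within B cell subsets Soat1 was at 43.8 against 44.6 CPM in naive follicular-like and at 24.8 against 24.2 CPM in B1-like cells, while 5 of 7 sub-clusters were higher. For the WD library the summed 18 enzymes had -0.22 and 0.10, a difference of -0.32. Most of the rise in macrophage/monocyte-like cells lay in 1 enzyme gene, Ebp (59.6 against 48.7 CPM). The macrophage/monocyte ratio of the sum was 0.03 with multiplets kept and -0.0026 with cells named by their own markers. The opposite direction thus did not hold under the latter.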

How the results depend on the processing

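Of the enzyme sums, 47 alternatives left the value within its counting interval, 10 moved it and 1 reversed it. Of the counts of members, 178 stayed within 1.5 times and 64 did not. Of single genes, 487 stayed within their counting interval (library ratios) or kept their call (contrasts). The others were 17 that moved out of the interval, 25 that lost the call and 2 that reversed. A ratio within its interval could still fall short of the 1.5-fold limit, as did Tm7sf2 in macrophage/monocyte-like cells, HHcy, with a lowest log2 ratio of 0.27. The cause of these changes was not tested, except that thinned cells hold fewer UMIs and other limits change counts by construction. The spread between mice cannot be had from 1 library per group.

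B cell-like cells, HHcy: the sum was -0.28 with the same sub-cluster mix and -0.26 without the Neurl3-led sub-cluster. Lower members were 14 at the smaller fold limit and 1 at 2-fold, and higher ones 5 at the smaller limit, 1 after thinning and 1 without cycling cells. WD: lower members were 5 at the 20% mitochondrial limit, by own markers and with equal weights, 9 at the smaller fold limit and 0 at 2-fold, and higher ones 1 by own markers, with equal weights and without cycling cells, and 2 at the smaller limit.

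Macrophage/monocyte-like cells, HHcy: the sum was 0.15 with multiplets kept and 0.13 by own markers. Higher members were 0 in both, after thinning, with TMM and at a fold of 2, and 4 with equal weights, 3 with the same mix, 6 at the smaller limit and 2 without cycling cells, and lower ones 2 at that limit. WD: the sum was 0.03 with multiplets kept (0.0274) and reversed to -0.0026 by own markers. Higher members were 1 by own markers and after thinning and 0 at 2-fold, and lower ones 4 with equal weights and without cycling cells, 7 at the smaller limit and 0 at 2-fold.

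Conventional dendritic-like cells, HHcy: the sum was 0.064 with multiplets kept, 0.29 with equal weights, 0.54 after thinning and 0.27 without cycling cells. Lower members were 1 at the 20% limit, without cycling and without Apoe-rich cells, 4 with multiplets, and 2 with equal weights or without the Fscn1-led cluster. Higher ones were 4 with equal weights, 0 after thinning and 5 without cycling cells. WD after thinning: sum -0.12, lower 1, higher 0, with Fdft1 at 0.57 and Sqle at 0.15 reversed, both on few UMIs. Without the Fscn1-led cluster 2 were higher.

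Contrasts: after thinning, called members were 5 lower for macrophage/monocyte against B cell, 6 higher for dendritic, 1 higher and 4 lower for neutrophil, 4 higher for foamy and 3 higher and 1 lower for B1. With DESeq2, neutrophil lower were 5, foamy higher 5, and B1 higher 5 and lower 3. With multiplets kept, neutrophil higher were 1 and lower 6, and foamy lower 2, also 2 for the Gpnmb-led sub-cluster alone. Leaving out 1 library gave, for neutrophil, 3 to 4 higher and 6 to 7 lower, for foamy 6 to 10 higher and 1 to 2 lower, and for B1 7 to 8 higher and 3 to 5 lower. Dropping the replicate block (the library term) gave 3 lower members for B1 against naive follicular and changed no other count by over 1.5 times.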

Other observations

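Some clusters outside the classes compared above held high enzyme levels. A small plasma cell-like cluster led by Hist1h2ap and Mzb1, with the cycling genes Pclaf and Ube2c among its leading genes, held 465 CPM of the 18 enzymes in the library labelled HHcy, and the other libraries held too few cells for a value. An unnamed cluster led by Trbc2, Trbc1 and Gzma, with Mki67 and Ube2c among its leading genes, held 464, 396 and 423 CPM (order control, HHcy, WD). Plasmacytoid dendritic-like cells, the interferon-producing dendritic cells, held 402 CPM in the library labelled HHcy. ILC2-like cells, innate lymphocytes with Gata3 and Il1rl1, held 289.5, 316 and 282 CPM, and their Insig1 was at 29.4, 47.9 and 24.6 CPM on 6, 17 and 11 UMIs. The Fscn1- and Ccl22-led conventional dendritic-like cluster held 369, 413 and 270 CPM, and its Insig1 was at 40.1, 26.7 and 8.87 CPM.

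Among macrophage/monocyte-like sub-clusters, one led by Lyz1 and Retnla held 330, 414 and 237 CPM of the enzymes. The Prg4- and Alox15-led sub-cluster had the highest Insig1 level of these sub-clusters in each library, at 172, 98.5 and 104 CPM. The cycling B cell sub-cluster, led by Pclaf and Stmn1, held 440, 211 and 221 CPM of the enzymes.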
